A study of Arabidopsis thaliana with 16 samples.

Results

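SPCH, MUTE and FMA are 3 genes for closely related basic helix-loop-helix (bHLH) transcription factors that act one after another in the stomatal lineage of Arabidopsis thaliana. Their expression was read on ATH1 gene expression arrays of hand-dissected gynoecia, the female organs of the flower. Each gene was found through the gene annotation of the array platform and each had 1 probe set, for SPCH (AT5G53210), MUTE (AT3G06120) and FMA (AT3G24140). These are 3 of the 22746 probe sets tested, after 64 control probe sets were left out of the 22810 on the array.

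The 16 arrays fell into 4 genotypes with 4 arrays each: the seu-3 ant-1 double mutant, written seu ant here, the ant-1 single mutant (ant), the seu-3 single mutant (seu), and Col-0 wild type. SEU is a co-regulator of transcription and ANT a transcription factor of the AP2 family, and the series asked how gynoecium expression changes when either or both functions are lost. All plants grew under long days, and every array held RNA pooled from 15 to 25 gynoecia of floral stages 8 to 10, with each pool taken as 1 biological replicate. The alleles act in the whole plant and only 1 allele of each gene was used, so all tissues of a mutant flower shared the genotype.

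In a developing epidermis, SPCH starts the lineage by driving the asymmetric entry divisions of protodermal cells. MUTE then ends the self-renewing divisions of the meristemoid and turns it into a guard mother cell, and FMA limits the final symmetric division and sets guard cell identity. The 3 proteins work as dimers with the bHLH factors ICE1/SCRM and SCRM2, while EPF peptides, the ERECTA-family and TMM receptors and the YODA mitogen-activated protein kinase cascade restrain SPCH. STOMAGEN is a peptide of the same family as the EPFs that acts the other way and raises stomatal number in leaves. These genes are best known from leaves, and stomata also form on the outer surface of the fruit.

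The deposited values were signal intensities on a linear scale. Signals under 16 were set to 16, termed the floor, because values this low carry little order, and log2 was then taken, so that 4 is the lowest possible log2 signal. The model in limma held 1 mean per genotype over all 16 arrays, and a call needed both a log2 difference over 0.35 and a p under 0.05 after Benjamini-Hochberg adjustment over all probe sets tested. The p-values measure the spread between pools of gynoecia. The arrays had median signals of 153 to 189, between 20.0% and 24.4% of probe sets of an array were at the floor, and arrays of the same genotype correlated with Pearson's r of 0.972 to 0.986 over all probe sets. SEU served as the check of the labels for that gene, with a mean log2 signal of 8.03 ± 0.10 in seu ant, 9.73 ± 0.15 in ant, 8.13 ± 0.43 in seu and 9.85 ± 0.16 in wild type (SD, n = 4 arrays each). Compared with wild type, log2 SEU signal in seu ant fell by 1.82 (limma adjusted p = 1.01e-05) and in seu it fell by 1.72 (limma adjusted p = 0.000274). ANT was not analysed here.

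SPCH, which opens the lineage, was the member with a clear change. Its signal was 336.3, 147.6, 173.2 and 179.4 on the seu ant arrays. The ant arrays gave 143.2, 69.0, 89.8 and 86.3, and the seu arrays gave 127.9, 128.1, 92.4 and 73.3. On the wild-type arrays the signal was 29.7, 11.6, 77.4 and 30.0, the second of these at the floor. All 4 seu ant arrays lay above all 4 wild-type arrays and above every single-mutant array, while ant and seu overlapped each other, and each of them reached down to a value under the brightest wild-type array. SPCH was above the floor on 15 of the 16 arrays.

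On the log2 scale the SPCH signal averaged 7.63 ± 0.52 in seu ant, 6.55 ± 0.44 in ant, 6.68 ± 0.39 in seu and 5.02 ± 0.94 in wild type (SD, n = 4 arrays each). SPCH thus rose in seu ant against wild type by 2.61 on the log2 scale (standard error 0.42, 95% interval 1.71 to 3.51, limma adjusted p = 0.000619), a 6.11-fold difference with an interval of 3.27 to 11.4. The size of this rise depended on the floor, with log2 differences of 2.31 at a floor of 32 and 2.15 with 16 added in its place. In the order of the levels, seu ant stood first and wild type last, and seu and ant between them were not separated beyond their spread. In pooled organs, more cells of the stomatal lineage and more SPCH RNA in each such cell cannot be told apart.

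The single mutants each had a SPCH mean above that of wild type without passing the test. The log2 difference was 1.66 for seu against wild type (95% interval 0.76 to 2.56, limma adjusted p = 0.0604) and 1.53 for ant against wild type (95% interval 0.63 to 2.43, limma adjusted p = 0.0512). Both passed when the arrays were centred on their medians, with adjusted p of 0.0265 for seu and 0.0217 for ant in limma. Centring also moved the median difference of all probe sets up, to 0.06 for seu and 0.14 for ant. Both SPCH differences also passed without the third wild-type array, the brightest of wild type for SPCH, at 2.08 and 1.95. Leaving out that array lowers the wild-type mean, so both differences had to widen. Each was called in only 4 of 9 other settings, with limma adjusted p up to 0.2 for seu and 0.17 for ant. Of the 16 fits that left out 1 array, 15 did not call seu against wild type and 14 did not call ant against wild type. The interval of neither difference reached 0, so these data do not show that the single mutants matched wild type.

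Between seu ant and the single mutants, the SPCH log2 difference was 0.95 against seu (95% interval 0.05 to 1.85, limma adjusted p = 0.176) and 1.08 against ant (95% interval 0.18 to 1.98, limma adjusted p = 0.0861). Neither was called, although the signals of seu ant overlapped with those of neither single mutant. The comparison with ant passed in 1 of 9 other settings, a floor of 32 (limma adjusted p = 0.0463). It also passed in 1 of the 16 fits that left out 1 array, the fit without the third wild-type array (limma adjusted p = 0.0302). The other 15 fits did not call it, with limma adjusted p up to 0.226. In both fits that passed, the log2 difference stayed at 1.08 and only the standard error was smaller. The departure from additive effects, which sets the log2 difference of seu ant from wild type against the sum of the differences of both single mutants, was -0.58 for SPCH (standard error 0.59, 95% interval -1.85 to 0.69, limma adjusted p = 0.631). The interval spans values from well under to somewhat over the sum of the single-mutant differences, so additivity was neither shown nor refused.

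**Figure D1:**
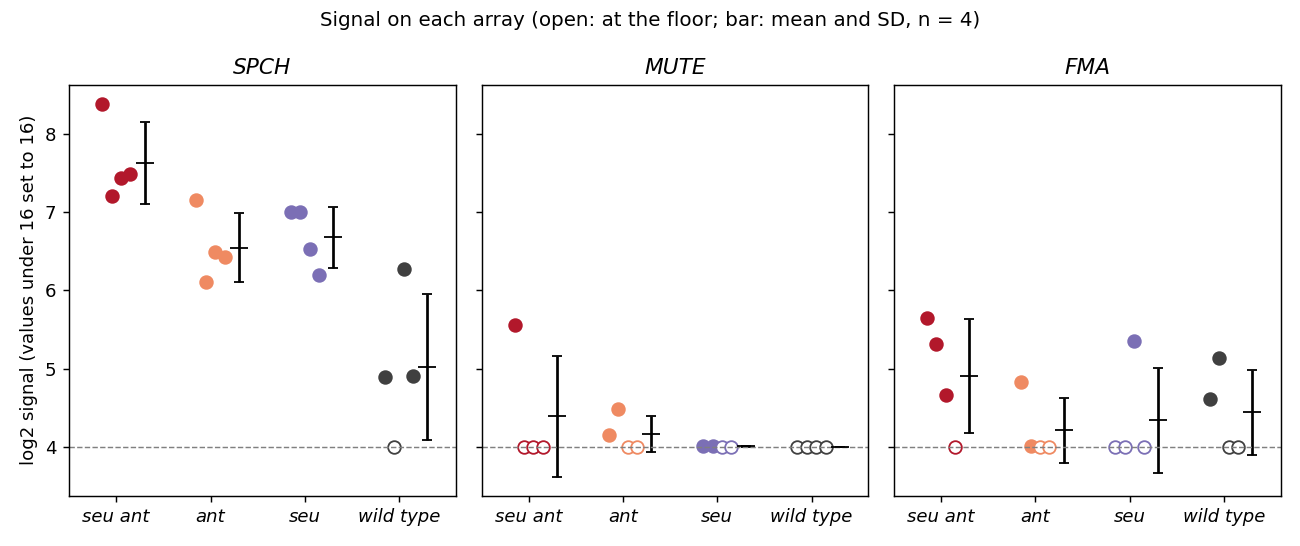
The log2 signal of SPCH, MUTE and FMA is plotted on the vertical axis for each of the 16 arrays by genotype, with open circles for arrays at the floor of 16 and bars for the mean and SD of 4 arrays. SPCH has all 4 seu ant arrays above all others, whereas MUTE has 11 and FMA 8 of 16 arrays on the floor line at 4.

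MUTE, which acts after SPCH, was hardly detected. Its signal was 47.0, 4.33, 3.69 and 15.1 on the seu ant arrays, of which the first alone was above the floor. In ant it was 17.8, 22.4, 13.9 and 2.06, and in seu it was 16.1, 16.1, 2.97 and 0.880. The wild-type arrays gave 3.88, 2.11, 5.81 and 0.833, all at the floor. Thus 5 of 16 arrays were above the floor, 1 in seu ant, 2 in ant, 2 in seu and 0 in wild type, and apart from the first seu ant array the signals above it were 16.1 to 22.4.

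The MUTE mean was 4.39 ± 0.78 in seu ant, 4.16 ± 0.23 in ant, 4.01 ± 0.0062 in seu and 4.00 ± 0 in wild type on the log2 scale (SD, n = 4 arrays each). Wild type had only an upper bound and arrays of every mutant were at the floor too, so no fold is given. The fitted log2 difference against wild type was 0.39 for seu ant (95% interval -0.21 to 0.99, limma adjusted p = 0.371), 0.0054 for seu (95% interval -0.59 to 0.60, limma adjusted p = 1) and 0.16 for ant (95% interval -0.44 to 0.76, limma adjusted p = 0.835). The value for seu ant rested on a single array and was 0 without the first seu ant replicate. These intervals are set on floored values and do not limit a change that lies below the floor. Against the single mutants, seu ant differed by 0.38 from seu (limma adjusted p = 0.448) and by 0.23 from ant (limma adjusted p = 0.635), and the departure from additive effects was 0.22 (standard error 0.39, limma adjusted p = 0.799).

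FMA, the last of the 3 to act, was above the floor on 8 of 16 arrays. Its signal was 50.3, 39.6, 25.2 and 5.22 on the seu ant arrays. It was 28.3, 16.1, 3.78 and 15.5 in ant, and 11.6, 9.95, 40.8 and 1.13 in seu. The wild-type arrays gave 24.4, 35.3, 10.3 and 2.47. In every genotype some arrays were above the floor and some at it, with 3 above it in seu ant, 2 in ant, 1 in seu and 2 in wild type, and all 4 genotypes overlapped.

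The FMA mean was 4.90 ± 0.73 in seu ant, 4.21 ± 0.41 in ant, 4.34 ± 0.67 in seu and 4.44 ± 0.55 in wild type on the log2 scale (SD, n = 4 arrays each). No neighbours in that order were separated beyond their spread. Against wild type the log2 difference was 0.47 for seu ant (95% interval -0.42 to 1.35, limma adjusted p = 0.479), -0.10 for seu (95% interval -0.99 to 0.79, limma adjusted p = 0.994) and -0.23 for ant (95% interval -1.12 to 0.66, limma adjusted p = 0.842). Against the single mutants, seu ant differed by 0.57 from seu (limma adjusted p = 0.451) and by 0.70 from ant (95% interval -0.19 to 1.58, limma adjusted p = 0.276). The departure from additive effects was 0.80 (standard error 0.58, 95% interval -0.46 to 2.05, limma adjusted p = 0.495). The direction of the seu and ant values against wild type turned when the second wild-type array was left out, to 0.13 and 0.0038.

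Across the members, 1 of 3 was called in seu ant against wild type, SPCH, and it was higher. In that comparison 19.7% of all probe sets were called, 8.3% higher and 11.4% lower. None of the 3 members was called in the other comparisons, where the share of all probe sets called was 2.19% for seu against wild type, 4.92% for ant against wild type, 10.2% for seu ant against seu, 19% for seu ant against ant and 5.08% for the departure from additive effects. Signals that did not overlap between the genotypes, as those of SPCH, were found for 22% of probe sets in seu ant against wild type, 16.1% in seu ant against seu and 21.6% in seu ant against ant. The comparisons share arrays, so their values for a member are not independent of one another.

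**Figure D2:**
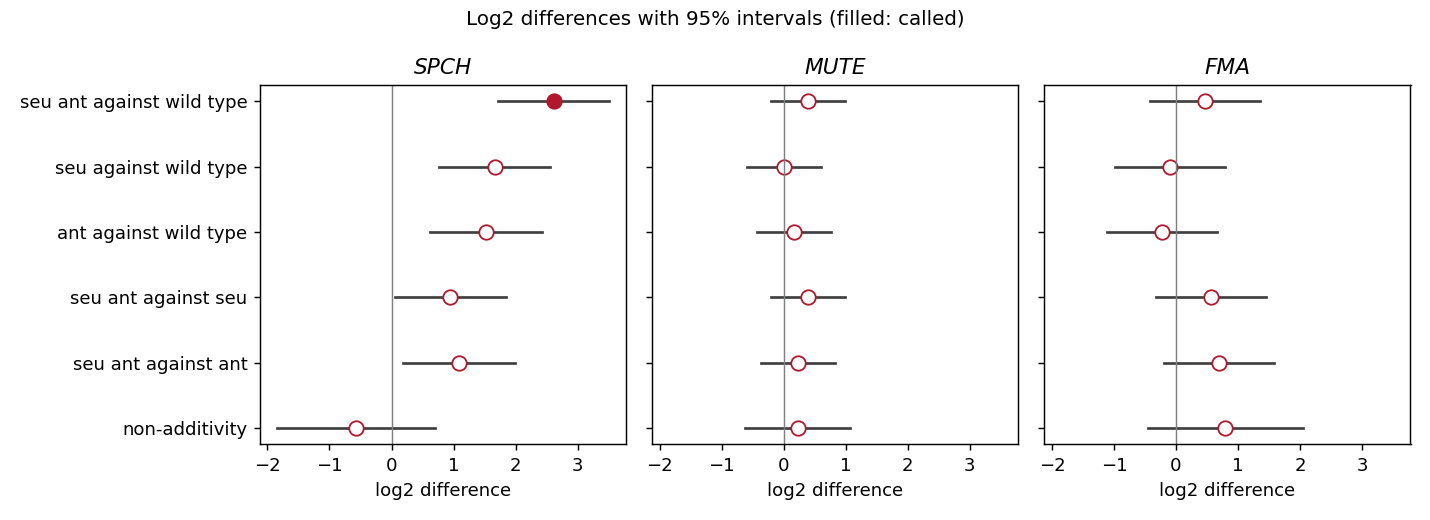
The log2 difference of each member is plotted on the horizontal axis with its 95% interval for the 5 pairwise comparisons and the departure from additive effects, each in its own row. The only filled point is SPCH in seu ant against wild type at 2.61, and the MUTE and FMA intervals all include 0.

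The rank of SPCH among all probe sets of its own array does not depend on how arrays were scaled. SPCH lay at percentiles 61.0, 47.4, 50.5 and 50.4 on the seu ant arrays, near the middle of the signals of an array. It lay at 47.7, 41.2, 44.1 and 42.7 in ant and at 46.5, 45.7, 43.5 and 41.7 in seu. The wild-type percentiles were 31.9, 18.9, 40.4 and 32.8. By rank, each of the 3 mutant genotypes lay wholly above wild type, while the lowest seu ant array fell just under the highest ant array. Percentiles that did not overlap were found for 21.7% of all probe sets in seu ant against wild type, 8.28% in seu against wild type and 11.2% in ant against wild type. For MUTE and FMA the percentiles ran over 1.62 to 35.8 and 2.98 to 36.5, and no genotype stood wholly above or below the other 3.

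**Figure D3:**
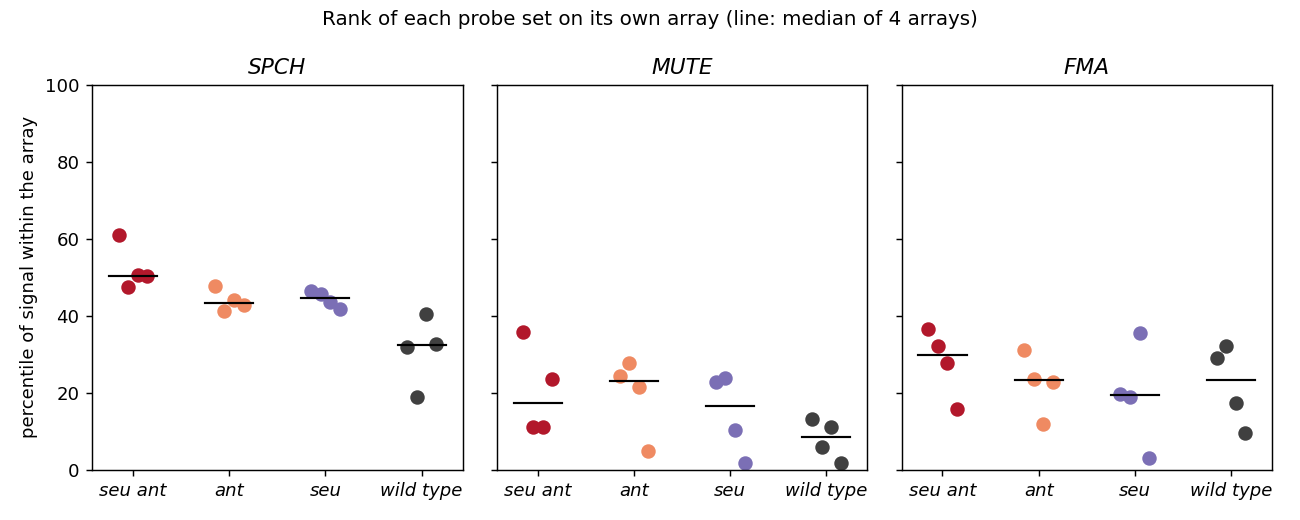
The vertical axis gives the percentile of each member's signal within its own array, with 1 point per array and a line for the median of the 4 arrays of a genotype. For SPCH all mutant arrays lie above the highest wild-type array at 40.4, and for MUTE and FMA the genotypes overlap.

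Low signals were common on these arrays. A total of 18.8% of probe sets were at the floor on at least as many arrays as MUTE, 25.8% on at least as many as FMA and 38.4% on at least as many as SPCH. In wild type, 9.98% of probe sets were at the floor on all 4 arrays, as MUTE was.

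MUTE and FMA were above the floor on more arrays of 1 run of array numbers than of the other. The array titles carry numbers that form 2 runs of 8, each with 2 arrays of every genotype, and the labels do not say that the runs were batches. MUTE was above the floor on 5 of 8 arrays of the first run and on 0 of 8 of the second. FMA was above it on 6 of 8 and 2 of 8, and SPCH on 7 of 8 and 8 of 8. Several signals lay close to 16, such as MUTE at 16.1 on both first-run seu arrays and at 15.1 on 1 second-run seu ant array. Between 20.0% and 23.8% of probe sets of an array were at the floor in the first run, and 21.1% to 24.4% in the second. How many of all probe sets split by run in this way was not counted. Within the runs, with 2 arrays a genotype, the SPCH log2 difference of seu ant against wild type was 3.35 in the first and 1.87 in the second. For seu against wild type it was 2.55 and 0.77, and for ant against wild type 2.19 and 0.87. All 3 SPCH differences thus kept their direction in each run and were larger in the first, which holds the wild-type array at the floor. The second run holds the brightest wild-type array for SPCH, at 77.4. The MUTE difference of seu ant against wild type was 0.78 in the first run and 0 in the second, and that of FMA was 0.61 and 0.33. For seu against wild type the FMA difference was -0.88 in the first run and 0.67 in the second. With the run as a block, SPCH in seu ant against wild type was called with a limma adjusted p of 0.0011, and no call of a member changed. The part of the run in these values was not tested.

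The other genes of the stomatal pathway were covered in part. Lists of signal peptides, dimer partners, receptors, kinases, polarity proteins, guard cell factors, mature guard cell markers, myrosin cell genes and further bHLH genes of the same subfamilies held 55 genes besides the members. Of these, 9 had a probe set named here, and the other 46 were not analysed here. Against wild type, seu ant had 2 of the 9 called higher, 1 called lower and 6 not called. Over all probe sets, 8.3% were called higher and 11.4% lower there. The median log2 difference was 0.12, beside -0.03 over all probe sets. In seu against wild type 0 were higher and 1 was lower, and ant against wild type gave the same counts. Of all 22746 probe sets, 2.19% and 4.92% were called in either direction, with 208 and 690 probe sets lower. Against seu, seu ant had 1 of the 9 called higher and 0 lower. Of all probe sets, 10.2% were called there, 1065 higher and 1251 lower. Against ant, seu ant had 3 higher and 0 lower. Of all probe sets, 19% were called there, 2206 higher and 2121 lower. The departure from additive effects was called for 0 of the 9, beside 5.08% of all probe sets. The counts of the 9 were not tested against these shares. The dimer partners, the receptors and the myrosin cell genes had no named probe set, so the genes of the proteins with which SPCH pairs and of those that restrain it at the cell surface were not analysed here.

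STOMAGEN, the peptide that promotes stomatal formation in leaves, was the only signal peptide gene with a probe set named here. Its signal was 583.9, 132.7, 120.2 and 173.3 on the seu ant arrays, against 74.2, 54.5, 21.5 and 51.6 in ant and 56.4, 50.6, 2.05 and 20.5 in seu. The wild-type arrays gave 24.5, 13.5, 13.1 and 43.8. As with SPCH, every seu ant array lay above every other array, and the first seu ant array was the brightest for both genes. That array was also the brightest of all arrays for MUTE, FMA, AT3G61950 and the rubisco activase gene RCA, though not for AT4G01460, AT1G22490 or TRY. Its being brightest is thus not particular to SPCH and STOMAGEN. Signals of seu ant that did not overlap, in either direction, were found for 22% of probe sets against wild type, 16.1% against seu and 21.6% against ant. The share with seu ant above all other arrays was not counted. STOMAGEN rose in seu ant against wild type by 3.13 on the log2 scale (standard error 0.59, limma adjusted p = 0.00194). The size of this rise depended on the floor, at 2.53 with a floor of 32 and 2.53 with 16 added in place of the floor. The log2 difference was 0.44 for seu (limma adjusted p = 0.833) and 1.01 for ant (limma adjusted p = 0.39), both against wild type. It also rose in seu ant against seu by 2.69 (limma adjusted p = 0.0113) and against ant by 2.12 (limma adjusted p = 0.0206). The call against ant was lost without the first seu ant array (1.61, limma adjusted p = 0.0579) and without the third ant array (1.76, limma adjusted p = 0.0637). Both calls against the single mutants were lost in fits of only the 2 genotypes compared, with limma adjusted p of 0.0573 against seu and 0.0614 against ant. The departure from additive effects was 1.68 (standard error 0.83, limma adjusted p = 0.283).

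Among the bHLH genes of the same subfamilies, 4 of 7 had a probe set named here, of which AT4G01460 fell and AT1G22490 rose in seu ant against wild type and the other 2 did not pass. AT4G01460 had signals of 62.3, 56.7, 38.3 and 24.6 in seu ant, 101.6, 59.9, 50.8 and 106.7 in ant, and 60.5, 98.9, 70.6 and 112.8 in seu. In wild type it had 310.4, 198.5, 257.2 and 262.0, above every mutant array. Compared with wild type, its log2 signal in seu ant fell by 2.57 (standard error 0.32, limma adjusted p = 0.000107), in seu it fell by 1.61 (limma adjusted p = 0.0204) and in ant it fell by 1.74 (limma adjusted p = 0.011). The call in seu was lost in 4 of the 16 fits that left out 1 array, those without replicate 1 or 3 of wild type or of seu, with limma adjusted p of 0.0509 to 0.0694.

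AT1G22490, also a bHLH gene, had signals of 261.4, 601.9, 312.7 and 546.9 in seu ant, 105.9, 118.8, 66.2 and 94.0 in ant, and 303.3, 223.4, 251.3 and 271.3 in seu. Wild type gave 171.4, 107.4, 250.3 and 110.2, so that seu ant lay above wild type on every array and ant overlapped with it. It rose in seu ant against wild type by 1.43 (standard error 0.31, limma adjusted p = 0.00533) and against ant by 2.11 (limma adjusted p = 0.000483). The call against wild type was narrowly lost when only those 2 genotypes were fitted (limma adjusted p = 0.0506). AT3G61950 was higher in seu ant than in ant by 0.75 (standard error 0.25, limma adjusted p = 0.0471) with overlapping signals, and 11 of the 16 fits that left out 1 array did not call it. It had a log2 difference of -0.0023 in seu ant against wild type. AT5G65320, the last of the 4, had 0.33 in seu ant against wild type (limma adjusted p = 0.482), with 2 of 4 seu ant and 3 of 4 wild-type arrays at the floor.

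The remaining pathway genes were not called in any comparison. In seu ant against wild type the log2 difference was 0.48 for MKK9, a mitogen-activated protein kinase kinase (limma adjusted p = 0.39), and -0.35 for ATBRXL2, of the BREVIS RADIX-like family (limma adjusted p = 0.194). It was -0.0061 for AGL16, a MADS-box factor linked to the number of satellite stomata (limma adjusted p = 1), and 0.12 for AT1G22690, which is used as a marker of mature guard cells (limma adjusted p = 0.831). For MKK9 the third wild-type array was at 554.8 and the others of wild type at 178.7, 124.3 and 138.7. The seu ant arrays lay between them, at 255.0 to 303.4, so the wide MKK9 spread rests on that array. AT1G22690 was at the floor on 3 of 4 seu ant and 2 of 4 wild-type arrays, and its difference is the median of the 9 genes given above. AT1G22690 was the only one of 10 genes on the list of mature guard cell markers with a named probe set, so the presence of guard cells was not checked.

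**Figure D4:**
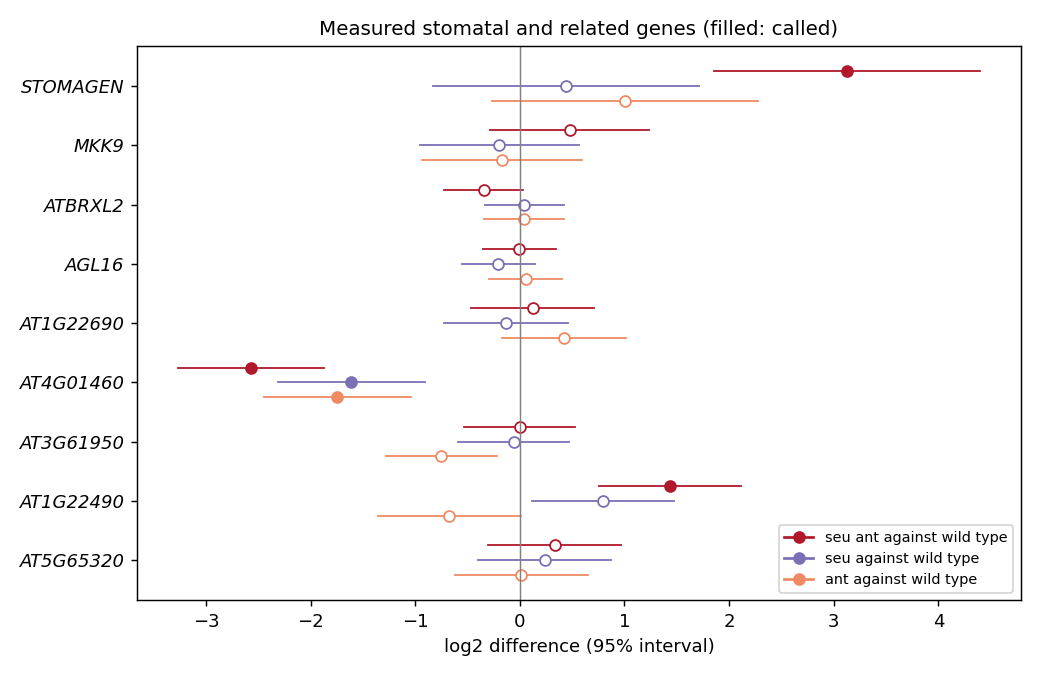
The horizontal axis gives the log2 difference with its 95% interval for the 9 genes of the pathway lists with a named probe set in seu ant, seu and ant, each against wild type. Filled points mark STOMAGEN and AT1G22490 higher in seu ant, and AT4G01460 lower in all 3 mutants.

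Markers of other tissues were read as well. RCA, rubisco activase, the only one of 6 genes on the list of photosynthetic tissue with a probe set named here, had a log2 difference of 0.34 in seu ant against wild type (limma adjusted p = 0.255). It rose against ant by 0.73 (limma adjusted p = 0.0167). SPT, a bHLH gene of the carpel margin and the only one of 6 listed gynoecium genes with a probe set named here, fell in seu ant against wild type by 1.38 (standard error 0.19, limma adjusted p = 0.000184). SPL, needed for sporogenous tissue, and AMS, needed for the tapetum of the anther, were the 2 of 5 genes on the list for other floral organs with a named probe set and had -0.68 (limma adjusted p = 0.257) and 0.08 (limma adjusted p = 0.941). Both lay near the floor, with SPL at it on 3 of 4 seu ant and 1 of 4 wild-type arrays, and AMS on 2 of 4 and 3 of 4. Sporogenous cells also form in the ovules of the gynoecium, so SPL does not mark other floral organs alone. None of the 7 epidermal genes on the list had a named probe set. The part of tissue make-up in the SPCH values was not tested.

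TRY, a small MYB-type factor that restrains trichome formation in the leaf epidermis, lies next to SPCH in the reference gene order and was the only one of 5 listed trichome genes with a named probe set. Its signal was 693.2, 787.9, 618.9 and 601.4 in seu ant, 271.9, 255.5, 162.3 and 255.4 in ant, 442.1, 419.0, 350.0 and 461.6 in seu, and 357.2, 248.7, 235.0 and 273.0 in wild type. The seu ant arrays lay above all others, as for SPCH, but ant lay among or below the wild-type arrays where SPCH in ant lay mostly above them. The share of all probe sets with seu ant above all other arrays was not counted. TRY rose in seu ant against wild type by 1.29 (standard error 0.17, limma adjusted p = 0.000164), against ant by 1.54 (limma adjusted p = 7.27e-05) and against seu by 0.69 (limma adjusted p = 0.0213). The log2 difference was 0.60 for seu (limma adjusted p = 0.106) and -0.25 for ant (limma adjusted p = 0.49) against wild type. The call against seu was lost without the first or the second seu ant array (limma adjusted p of 0.0542 and 0.066) and without the third seu array (limma adjusted p = 0.0649).

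The neighbour of SPCH on the other side, AT5G53220, did not pass, at -0.26 in seu ant against wild type (limma adjusted p = 0.344). MUTE had AT3G06130 as its neighbour with a named probe set, at -0.15 (limma adjusted p = 0.391), and MKP2 on the other side was not analysed here. The neighbours of FMA were AT3G24130 at -0.29 (limma adjusted p = 0.567) and AT3G24150 at 0.07 (limma adjusted p = 0.613). Of the 5 neighbours with a named probe set, TRY was thus the one called in that comparison. Among all probe sets, 19.7% were called there, so a count of 1 in 5 is near that share.

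The probe sets most like SPCH were sought by Pearson's r of log2 signal over the 16 arrays, among the 8995 probe sets with 1 named gene and signals above the floor on at least 12 arrays. Of these, 77 had an r over 0.8 and 3 an r over 0.9. The closest were AT1G76620 with r = 0.92, AT4G17100 with 0.91, AT2G44670 with 0.91, GT72B1, a glucosyltransferase gene, with 0.90 and AT1G14580 with 0.89. The arrays share genotypes and scaling, and with each genotype mean removed the values were 0.78, 0.71, 0.62, 0.72 and 0.68 in the same order. Those of MUTE and FMA with SPCH were 0.44 and 0.16 over the 16 arrays, and 0.36 and -0.08 with genotype means removed, with many values at the floor. TRY had 0.58, and -0.06 with genotype means removed.

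The 5 genes most like SPCH were all called higher in seu ant against wild type, which their likeness to SPCH favours. The log2 difference was 1.85 for AT1G76620 (standard error 0.33), 1.48 for AT4G17100 (standard error 0.17), 1.56 for AT2G44670 (standard error 0.22), 2.28 for GT72B1 (standard error 0.26) and 1.21 for AT1G14580 (standard error 0.18). In seu against wild type, AT2G44670 with 1.06 and GT72B1 with 1.13 were called. In ant against wild type, AT1G76620 with 1.31, AT4G17100 with 0.76 and AT1G14580 with 0.67 were called. Of all 22746 probe sets, 8.3% were called higher in seu ant, 290 in seu and 430 in ant, each against wild type. The 5 genes were chosen on these same arrays, so their calls in these comparisons follow in part from that choice.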

How the data were processed

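Gynoecium RNA was hybridised to ATH1 arrays, 4 per genotype, grouped by the genotype in the labels. The values, as deposited, were linear signal intensities made with MAS5, which the authors scaled to a common trimmed mean. The 2% trimmed mean over all probe sets was 500.04 to 500.05 on each array. The MAS5 version was not given in the sources used, and no detection calls were used. A difference that involves floored arrays depends on the floor.

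Signals were floored at 16 and log2 transformed, and limma 3.58.1 in R 4.3.3 was fitted over 16 arrays (lmFit, eBayes, prior df 1.04), with Benjamini-Hochberg adjustment over 22746 probe sets. The number of arrays limits the precision. The script was tested on simulated data. Figures were drawn in matplotlib 3.10.9. The study's own tests used loess-normalised values, not used here.

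Of the probe sets, 13853 had 1 gene name, 13513 through the platform annotation and 340 through a table of the study, used for names only. Another 503 had several genes and named none. Gene order came from the TAIR10.1 RefSeq table. No sequence was used.

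Genes named were the members, the label check, listed genes called in any comparison (at most 4 a list), listed genes not called where a list was counted, neighbours, and the 5 most like SPCH. The members and lists were chosen with earlier results of these data known. Alternatives were a floor of 32, an offset of 16 in place of the floor, median centring, quantile normalisation, a filter on dim probe sets, a trended robust prior, no moderation, 2-genotype fits, the run as a block, and leaving out each array.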

Additional observations from a re-analysis of the deposited data

Results flagged for a closer look

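In groups of 4 arrays, the highest or lowest log2 signal was set against the others by Dixon's ratio in the 69 groups with any spread, where chance gives such a gap in about 5% of groups without ties. That rate does not hold where 3 arrays are tied at the floor, since any value of the remaining array then stands apart. Among the members, the highest MUTE array in seu ant stood apart at 5.56, the highest FMA array in ant at 4.82 and the highest FMA array in seu at 5.35, in each case with the other 3 arrays at or next to the floor. No SPCH array stood apart.

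For the label check SEU, the lowest arrays stood apart at 7.88 in seu ant, 7.50 in seu and 9.62 in wild type. The lowest TRY array in ant stood apart at 7.34. The rest were arrays alone above the floor: AT1G22690 in seu ant at 5.02, AT5G65320 in ant at 4.35, in seu at 5.25 and in wild type at 4.29, SPL in seu ant at 4.48 and in seu at 5.07, and AMS in wild type at 5.25.

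The effect of losing ANT on TRY differed between plants without and with SEU, with a departure from additive effects of 0.94 on the log2 scale (standard error 0.24, limma adjusted p = 0.0443). It passed narrowly, and was lost with 16 added in place of the floor (0.90), with median centring (0.79), without moderation, and in 12 of the 16 fits that left out 1 array.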

How the results depend on the processing

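SPCH in seu ant against wild type was called under all 9 other settings (2.15 to 2.70) and without each of the 16 arrays (2.27 to 3.03). Over the 18 member results, 148 of 159 values under other settings and 276 of 288 values without 1 array kept their direction and call. SPCH was called in seu against wild type with median centring (1.74), quantile normalisation (1.66), dim probe sets left out (1.66) and a trended robust prior (1.66), and without single arrays ranged over 1.32 to 2.08. In ant against wild type it was called under the same settings (1.69, 1.59, 1.53 and 1.53), with a range of 1.19 to 1.95 and calls without the third wild-type array (limma adjusted p = 0.0151) and the first seu ant array (limma adjusted p = 0.0459). SPCH in seu ant against ant was called with a floor of 32 (1.08), with a range of 0.83 to 1.29. FMA turned to 0.053 in seu against wild type with a floor of 32, and without single arrays ranged over -0.44 to 0.13 there and -0.44 to 0.0038 in ant. MUTE turned to -0.29 for the departure from additivity with 16 added. Without single arrays MUTE ranged over -0.16 to 0.35 for that departure, -0.0054 to 0.51 for seu ant against seu and -0.16 to 0.36 for seu ant against ant, each turning without the first seu ant array, the only one above the floor. SEU in ant against wild type turned to 0.039 with median centring.

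Pathway genes called lower became 1 with quantile normalisation in seu ant against seu, and 2 with median centring and 1 with quantile normalisation in seu ant against ant. AT3G61950 in seu ant against wild type turned to 0.0016 with 16 added, 0.082 with median centring and 0.047 with quantile normalisation, and in seu against wild type to 0.017 and 0.023 with the last 2; without single arrays it ranged over -0.21 to 0.17, -0.17 to 0.096 and, for seu ant against seu, -0.15 to 0.23. Causes were not tested beyond what each setting changes. Median centring moved the median of all probe sets to 0.14 in ant against wild type, and the calls there to 1101 higher and 297 lower, against 430 and 690 in the main setting; with quantile normalisation they were 481 and 475. For seu ant against wild type the calls were 1887 higher and 2597 lower, 2316 and 1758 with centring, and 2013 and 2205 with quantile normalisation. For seu they were 290 and 208, 420 and 134, and 335 and 183. No paired analysis was possible because the labels give no replicate numbers shared by the genotypes. MUTE and FMA lay near the floor, so changes below it could not be seen.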
